A study of Rattus norvegicus with 17 samples.

Results

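The slow-fiber contractile genes described here are 10 genes of the thick filament, the thin filament and the calcium store that type I (slow) muscle fibers use in place of, or at far higher levels than, fast fibers: Myh7, Myh7b, Myl2, Myl3, Tnnt1, Tnni1, Tnnc1, Atp2a2, Tpm3 and Casq2. They were taken from the deposited count table by gene name. All 10 were found, each on 1 row, among 32495 named rows, and all 10 passed the filter on low counts that left 11856 genes for testing. RNA came from the gastrocnemius, a predominantly fast hindlimb muscle, of rats that bore a tumor and were given chemotherapy, of rats that bore a tumor and were given no chemotherapy, and of healthy rats. Every sample title names a control diet, so all 3 groups share it. The labels name no tumor type, chemotherapy agent, strain, sex, age or time of sampling. The groups held 6 chemotherapy samples, 5 tumor samples and 5 healthy samples, with libraries 11 and 12 of the chemotherapy group summed into 1 sample because their counts were closer to each other than those of any other pair of libraries in a group. Whether each sample is a separate animal is not stated, so the p-values measure the spread between these samples.

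A slow fiber contracts slowly, resists fatigue and draws its energy mainly from oxidative metabolism, and it carries its own version of nearly every sarcomere protein. Its myosin motor is the heavy chain encoded by Myh7, with an essential light chain from Myl3 and a regulatory light chain from Myl2. These light chains also build the ventricle of the heart. Its thin filament is switched by a troponin complex of Tnnt1, Tnni1 and Tnnc1 along a tropomyosin strand that includes the product of Tpm3, and its calcium is pumped back by the Atp2a2 product and buffered by calsequestrin 2 from Casq2. In rodents, calcineurin with NFAT factors, MEF2 factors and the coactivator encoded by Ppargc1a are known to favor this program. A pair of microRNAs lies within introns of its myosin genes, miR-208b in Myh7 and miR-499 in Myh7b, and in mice both are known to act on repressors of slow genes.

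The sequences of those microRNAs are shown because they tie the myosin genes to each other: their seeds, bases 2 to 8 in capitals, share 6 of 7 bases and differ at base 8. They come from RefSeq on rat assembly GRCr8, at chr15:32421648-32421665 on the minus strand for miR-208b-3p and at chr3:164570616-164570636 on the plus strand for miR-499-5p.
miR-208b-3p, host Myh7: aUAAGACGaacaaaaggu
miR-499-5p, host Myh7b: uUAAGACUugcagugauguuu
The libraries were not made for small RNA. The Mir208b gene had between 0 and 6 counts per library and 36 in all, and Mir499a had 0 in every library, so no level is given for either.

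RefSeq start windows were matched for 8 of the 10 genes, and the 250 bases before the annotated start are shown for 3 whose levels did, or did not, move together across samples: Tnnt1 and Casq2, which moved closely, and Myl3, which moved with them least. Capitals mark TATAAA, the MCAT element CATTCC that TEAD factors bind, the CArG box that SRF binds and the MEF2 site, each searched on both strands. The windows lie on the plus strand of GRCr8 at chr1:78348785-78349034 for Tnnt1, chr2:192214306-192214555 for Casq2 and chr8:119616844-119617093 for Myl3.
Tnnt1: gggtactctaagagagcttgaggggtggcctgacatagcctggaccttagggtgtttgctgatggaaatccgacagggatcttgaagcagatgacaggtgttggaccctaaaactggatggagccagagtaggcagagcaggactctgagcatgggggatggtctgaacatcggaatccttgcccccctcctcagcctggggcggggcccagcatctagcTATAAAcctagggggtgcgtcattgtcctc
Casq2: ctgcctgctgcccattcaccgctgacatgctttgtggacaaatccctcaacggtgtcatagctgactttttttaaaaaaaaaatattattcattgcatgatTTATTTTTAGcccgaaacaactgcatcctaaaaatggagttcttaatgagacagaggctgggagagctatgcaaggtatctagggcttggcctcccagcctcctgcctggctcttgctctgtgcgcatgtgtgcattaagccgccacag
Myl3: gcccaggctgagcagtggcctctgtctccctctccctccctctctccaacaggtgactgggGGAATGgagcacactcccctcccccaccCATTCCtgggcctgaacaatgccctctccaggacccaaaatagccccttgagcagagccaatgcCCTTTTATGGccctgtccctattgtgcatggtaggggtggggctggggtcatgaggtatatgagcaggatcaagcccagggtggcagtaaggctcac
Tnnt1 had TATAAA at -30 to -25 relative to its annotated start, and no other of the 8 genes had one in its window. Casq2 was the only one with a MEF2 site, and Myl3 the only one with MCAT elements, 1 on each strand, and a CArG box. Over all 33469 RefSeq windows of this length, 12.9% held TATAAA or its reverse TTTATA, 12.1% an MCAT element, 3.0% a MEF2 site and 1.5% a CArG box. The E-box CANNTG stood in at least 1 window of each of the 8 genes and in 65.5% of all windows. The NFAT core GGAAA stood in at least 1 window of Myh7, Tnnt1 and Tpm3 and in 56.9% of all windows. The 8 genes have 10 windows, as Tpm3 has more than 1, and not every Tpm3 window held an E-box. A count of genes is therefore not on the same footing as a share of windows. The windows of Myh7, Myh7b and Tpm3 lie before annotated starts inside the gene. These starts are 1657, 21129 and 2349 to 8873 bases from the upstream end of the gene. A match is a string of letters and not a shown binding site. The 3 windows were picked after the levels had been seen.

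Deposited libraries held between 3020821 and 15719080 counts on named genes. Each library's alignment name ends in MB or VM, and the labels do not explain these suffixes. The suffix MB marked 4 of the 5 healthy libraries and the summed chemotherapy library 11, and the rest carried VM: chemotherapy samples 13 to 17, every tumor library and healthy library 5. Tumor and healthy muscle therefore differ in suffix as well as in tumor, apart from healthy library 5. The tissue carried the markers of skeletal muscle, with Myh4, the fast IIb myosin, at a mean of 86894 CPM in chemotherapy, 96972 in tumor and 87145 in healthy samples (CPM, counts as a share of the library total scaled by TMM factors). Of 8 heart markers, Nppa, Nppb, Myl7 and Nkx2-5 had 0 counts in every sample. The list summed to between 62.6 and 101 CPM in chemotherapy, 77.2 and 156 in tumor and 32.4 and 124 in healthy samples. Only 1 of the 8, Myh6, could be tested, with means of 78.7, 125 and 69.3 CPM in these groups.

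The question the design puts to these genes is whether the slow-fiber program of the gastrocnemius differs with a tumor and with chemotherapy. Slow genes were at their highest in tumor-bearing rats without chemotherapy: each of the 10 had a higher mean there than in either other group, and together they took 0.853% ± 0.186 of all counts in chemotherapy samples (SD, n = 6), 1.35% ± 0.31 in tumor samples (n = 5) and 0.824% ± 0.313 in healthy samples (n = 5). None of the 10 passed the threshold of an edgeR adjusted p below 0.05 in any of the 3 comparisons. In whole muscle, more slow fibers and more slow transcripts per fiber cannot be told apart.

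**Figure D1:**
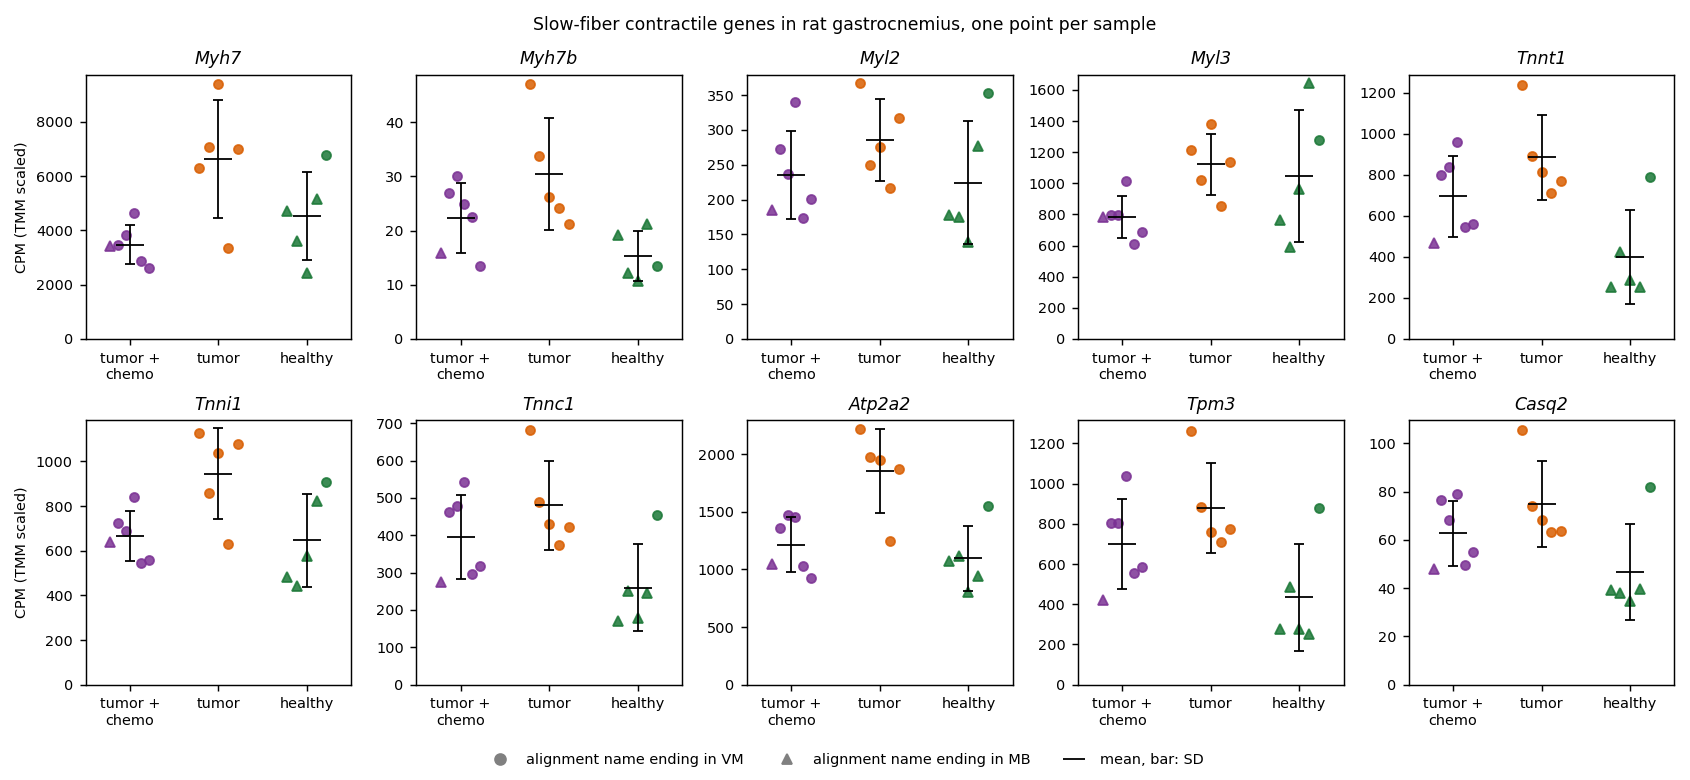
Levels of the 10 slow-fiber genes in CPM, 1 point per sample, with the mean and SD of each group. Circles are samples with the VM suffix and triangles those with MB. Tumor means are the highest in every panel, and healthy library 5, the only healthy circle, lies in the tumor range for all genes but Myh7b.

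Myh7, the slow myosin heavy chain, made up between 39.5% and 59.1% of the counts of the 10 genes. Its level ranged from 2622 to 4640 CPM in chemotherapy samples (median 3444), was 6312, 7076, 9392, 3352 and 6986 CPM in tumor samples 6 to 10, and was 4711, 3598, 2435, 5163 and 6758 CPM in healthy samples 1 to 5. Tumor sample 9 stood low, inside the chemotherapy range, and the 4 other tumor samples lay above all 6 chemotherapy samples. Its log2 fold change was -0.93 ± 0.25 (SE) for chemotherapy against tumor (adjusted p = 0.771), the largest of the 10 in that comparison and rank 19 of all 11856 genes by p. It was -0.38 ± 0.25 for chemotherapy against healthy (adjusted p = 0.265) and 0.55 ± 0.26 for tumor against healthy (adjusted p = 0.276).

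Myh7b, an ancient slow-type myosin heavy chain made in small amounts in muscle and heart, was the only one of the 10 whose tumor and healthy samples did not overlap. It ranged from 13.5 to 30.0 CPM in chemotherapy samples (median 23.8), was 47.0, 33.8, 26.1, 24.1 and 21.3 CPM in tumor samples 6 to 10 and was 19.3, 12.1, 10.7, 21.2 and 13.5 CPM in healthy samples 1 to 5. The gap between the lowest tumor and the highest healthy sample was narrow, 21.27 against 21.20 CPM, and 0.439% of all genes tested had every tumor sample above every healthy one. Fold changes on the log2 scale were 0.98 ± 0.25 for tumor against healthy (adjusted p = 0.211), 0.52 ± 0.25 for chemotherapy against healthy (adjusted p = 0.133) and -0.46 ± 0.24 for chemotherapy against tumor (adjusted p = 0.778).

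Myl3, the essential light chain of slow and ventricular myosin, differed least between tumor and healthy muscle. It ranged from 613 to 1014 CPM in chemotherapy samples (median 791), was 1213, 1021, 1382, 856 and 1137 CPM in tumor samples and was 763, 588, 960, 1646 and 1280 CPM in healthy samples. Healthy sample 4 held the highest value of all 16, and 4 of the 5 tumor samples lay above every chemotherapy sample. The log2 fold change was -0.52 ± 0.21 for chemotherapy against tumor, -0.42 ± 0.21 for chemotherapy against healthy and 0.10 ± 0.22 for tumor against healthy. Its adjusted p was 0.778, 0.158 and 0.831 in these comparisons.

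Myl2, the regulatory light chain that pairs with Myl3, overlapped widely in all 3 groups. It ranged from 174 to 341 CPM in chemotherapy samples (median 219), from 217 to 368 in tumor samples (median 276) and from 139 to 353 in healthy samples (median 178). Its log2 fold changes were -0.28 ± 0.23 for chemotherapy against tumor, 0.066 ± 0.23 for chemotherapy against healthy and 0.35 ± 0.24 for tumor against healthy.

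Tnnt1, slow troponin T, which anchors the troponin complex to tropomyosin, had the largest difference between tumor and healthy muscle. It ranged from 469 to 962 CPM in chemotherapy samples (median 678), was 1236, 894, 815, 711 and 772 CPM in tumor samples and was 252, 424, 285, 254 and 789 CPM in healthy samples. Healthy library 5 stood apart from the 4 other healthy samples, which all lay below every tumor and every chemotherapy sample. In log2 fold change this was 1.14 ± 0.29 for tumor against healthy, a 2.21-fold higher fitted level (adjusted p = 0.211), and 0.79 ± 0.28 for chemotherapy against healthy (adjusted p = 0.0574). For chemotherapy against tumor it was -0.35 ± 0.27 (adjusted p = 0.794).

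Tnnc1, the calcium sensor of slow fibers and heart, repeated that order of samples. It ranged from 274 to 542 CPM in chemotherapy samples (median 391), was 681, 490, 431, 374 and 423 CPM in tumor samples and was 169, 251, 180, 245 and 456 CPM in healthy samples, with healthy library 5 again in the tumor range. Its log2 fold changes were 0.88 ± 0.26 for tumor against healthy (adjusted p = 0.211), 0.60 ± 0.25 for chemotherapy against healthy (adjusted p = 0.0886) and -0.28 ± 0.24 for chemotherapy against tumor (adjusted p = 0.802).

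Tnni1, slow troponin I, the inhibitory subunit, followed a different order, in which chemotherapy and healthy samples lay together. It ranged from 546 to 842 CPM in chemotherapy samples (median 664), was 1126, 857, 1036, 630 and 1077 CPM in tumor samples and was 484, 442, 579, 822 and 908 CPM in healthy samples. All tumor samples but sample 9 lay above every chemotherapy sample. The log2 fold change was -0.50 ± 0.20 for chemotherapy against tumor (adjusted p = 0.778), 0.042 ± 0.20 for chemotherapy against healthy and 0.55 ± 0.21 for tumor against healthy (adjusted p = 0.242).

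Tpm3 encodes the slow-fiber tropomyosin and, through other promoters, tropomyosins of many cell types that are not muscle, and the counts do not separate these transcripts. It ranged from 421 to 1039 CPM in chemotherapy samples (median 693), was 1261, 886, 759, 708 and 774 CPM in tumor samples and was 279, 486, 278, 252 and 877 CPM in healthy samples. The order was nearly that of Tnnt1, and healthy library 5 again lay inside the tumor range. The log2 fold change was 1.02 ± 0.31 for tumor against healthy (adjusted p = 0.211), 0.69 ± 0.30 for chemotherapy against healthy (adjusted p = 0.107) and -0.32 ± 0.30 for chemotherapy against tumor (adjusted p = 0.807).

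Atp2a2 encodes the calcium pump SERCA2, made in slow fibers and heart and, as another isoform, in most cells. It ranged from 928 to 1468 CPM in chemotherapy samples (median 1201), was 2222, 1973, 1952, 1245 and 1870 CPM in tumor samples and was 1077, 1116, 801, 939 and 1552 CPM in healthy samples. The 4 tumor samples other than sample 9 lay above all 6 chemotherapy and all 5 healthy samples. On the log2 scale the fold change was -0.61 ± 0.18 for chemotherapy against tumor (adjusted p = 0.778), 0.15 ± 0.18 for chemotherapy against healthy (adjusted p = 0.59) and 0.76 ± 0.19 for tumor against healthy (adjusted p = 0.211).

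Casq2, the calsequestrin of slow fibers and heart, ranged from 48.0 to 78.8 CPM in chemotherapy samples (median 61.4), was at 105.5, 73.9, 68.2, 63.4 and 63.5 CPM in tumor samples and at 39.1, 38.2, 34.5, 39.4 and 81.9 CPM in healthy samples. The 4 healthy samples with the MB suffix were the lowest of all 16, below the chemotherapy sample with that suffix at 48.0. Casq2 had a log2 fold change of 0.68 ± 0.23 for tumor against healthy (adjusted p = 0.221), 0.42 ± 0.22 for chemotherapy against healthy (adjusted p = 0.174) and -0.26 ± 0.22 for chemotherapy against tumor (adjusted p = 0.797).

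**Figure D2:**
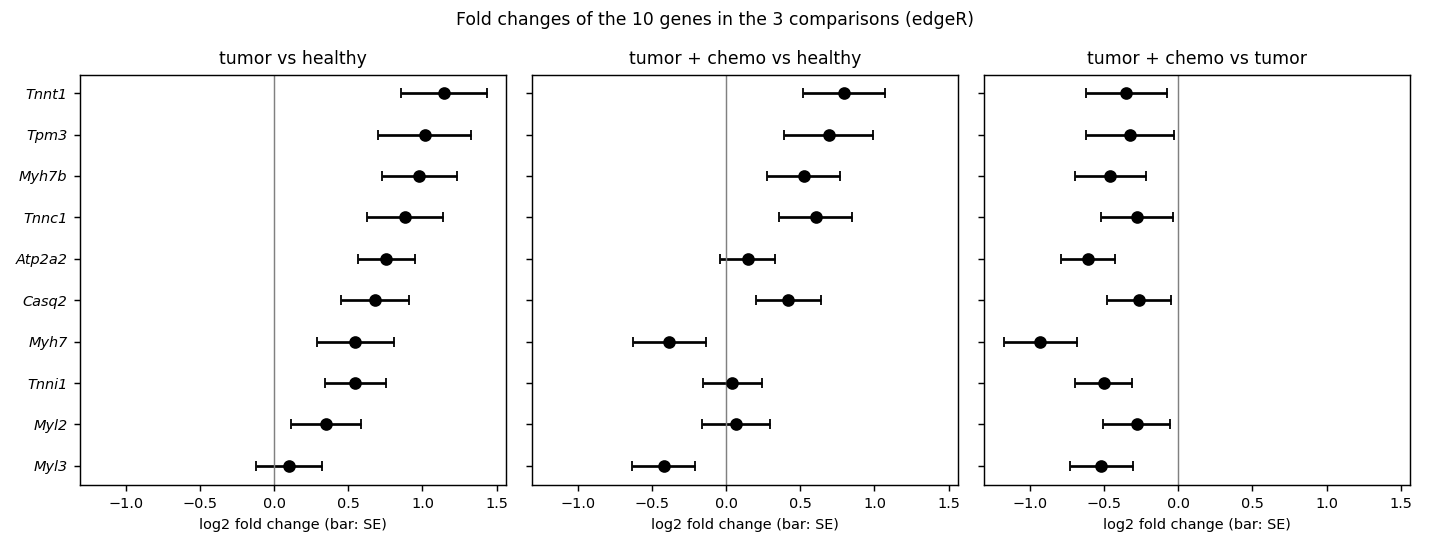
Log2 fold changes of the 10 genes from edgeR in the 3 comparisons, with bars of 1 SE. All 10 points lie right of 0 for tumor against healthy, from 0.10 to 1.14, and all 10 left of 0 for chemotherapy against tumor, from -0.93 to -0.26.

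Set side by side in tumor against healthy muscle, the 10 genes had positive fold changes throughout, with a median of 0.72 beside 0.0097 over all genes tested, where 51% were positive. None was called by edgeR, beside 0% of all genes, and 8 had an unadjusted p below 0.05, all higher, beside 8.88% of all genes with such a p and a positive fold change and 18% in either direction. DESeq2 called 2 of them, Tnnt1 and Atp2a2, among 40 genes in all (0.337%), and limma-voom called 0, beside 0% of all genes. Single healthy libraries decide these calls: without healthy library 2, edgeR called Tnnt1 and Atp2a2, among 504 genes in all (4.2%), and without healthy library 5 it called Tnnt1, 1 of 2 genes in all (0.0167%). With the suffix as a term in the model, 8 of 10 remained positive and the median was 0.27, and within the VM libraries, which hold 1 healthy sample, 6 of 10 were positive with a median of 0.032. Healthy library 5 exceeded the 4 other healthy libraries for 8 of the 10 genes, all but Myh7b and Myl3. Chemotherapy sample 11, the only one of its group with MB, lay below the other chemotherapy samples for 4 of the 10. Over all genes, healthy library 2, which carries MB, was closer to healthy library 5 than to 1, 3 and 4. The chi-square per degree of freedom between counts was 22.7, against 43.5, 90.3 and 117. With 4 of 5 healthy libraries in MB and every tumor library in VM, tumor and suffix cannot be told apart as the source of most of this difference.

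Fold changes for chemotherapy against healthy muscle varied in sign among the 10 genes. Of the 10 genes, 8 had a positive fold change and Myh7 and Myl3 a negative one, with a median of 0.28 beside -0.018 over all genes, 48.8% of which were positive. None was called by edgeR, beside 13.7% of all genes, and 4 had an unadjusted p below 0.05, all higher, beside 18.9% of all genes with such a p and a positive fold change. Without regard to direction, that is 4 of 10 beside 36.4% of all genes, a share near the background. DESeq2 called Tnnt1 alone, where it called 21.7% of all genes, and limma-voom Tnnt1 and Tpm3, where it called 20.6%, so both counts are at or below the share of all genes. With healthy library 5 left out, edgeR called 4, Tnnt1, Tnnc1, Tpm3 and Casq2, all higher, beside 20% of all genes. With healthy library 2 left out, the calls were Tnnt1, higher, and Myl3, lower, beside 31.7% of all genes, and with chemotherapy sample 11 left out, Tnnt1 alone, beside 24.4%. With the suffix as a term 5 of 10 were positive and the median was -0.057, and within the VM libraries 1 of 10 was positive and the median was -0.32. The share of all genes called also rests on single samples: the count of 1625 was 0 without any one of healthy libraries 1, 3 and 4 or chemotherapy samples 13, 14 and 15, was 529 without chemotherapy sample 16 and 1040 without 17, and was 3799 without healthy library 2 and 2889 without chemotherapy sample 11.

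Chemotherapy against tumor muscle is the comparison that the suffix touches least, since 5 of 6 chemotherapy samples and all tumor samples carry VM. All 10 genes had a negative fold change, with a median of -0.40 beside 0.0040 over all genes, 50.6% of which were positive. None was called by edgeR, DESeq2 or limma-voom, beside 0% of all genes by edgeR, and 4, Myh7, Atp2a2, Tnni1 and Myl3, had an unadjusted p below 0.05, all lower, beside 3.81% of all genes with such a p and a negative fold change and 5.78% in either direction. Within the VM libraries the means of Myh7 were 3486 ± 797 CPM in chemotherapy samples and 6624 ± 2168 CPM in tumor samples (SD, n = 5 each), and all 10 genes again had a negative fold change, with a median of -0.32. In none of 31 alternative analyses did any of the 10 have a positive fold change or pass the threshold, and the median ran from -0.51 to -0.22. Since the 10 levels were correlated across samples, from 0.15 to 0.99 by pair as described below, their shared sign is not 10 separate observations. This comparison shares the tumor samples with tumor against healthy, so a high tumor level enters both.

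A single test for any difference among the 3 groups called none of the 10, beside 0% of all genes, with the smallest adjusted p of 0.0728 for Atp2a2, and 8 of 10 had an unadjusted p below 0.05, beside 27.9% of all genes. DESeq2 called 6 of the 10 in this test, Myh7, Myh7b, Tnnt1, Tnnc1, Atp2a2 and Tpm3, beside 13.6% of all genes, and limma-voom Tnnt1 and Atp2a2, beside 4.12%. Single healthy libraries changed this result too: without library 5 edgeR called Tnnt1, Tnnc1, Atp2a2, Tpm3 and Casq2, beside 2.73% of all genes, and without library 2 it called Myh7, Tnnt1 and Atp2a2, beside 20.2%.

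Markers of other cells moved with some of these contrasts. The summed level of 8 smooth muscle and pericyte markers ran from 237 to 339 CPM in chemotherapy samples, from 337 to 511 in tumor samples and from 370 to 475 in healthy samples, with none of the markers at 0 in any group. In chemotherapy against tumor, 5 of the 7 that could be tested had an unadjusted p below 0.05, all lower, and none was called. Over all genes, 3.81% had such a p and a negative fold change there, and 0% were called. In chemotherapy against healthy, 5 of the 7 fell past the threshold, beside 6.41% of all genes: Cspg4, Notch3, Tagln, Acta2 (smooth muscle actin) and Pdgfrb, by 0.71 to 1.17 on the log2 scale (edgeR adjusted p = 0.0262 to 0.0301). Fibroblast markers, 8 of 9 on the list, summed to between 2596 and 11428 CPM in chemotherapy samples, 3128 and 13710 in tumor samples and 5264 and 15580 in healthy samples. Of these 8, Col3a1, Fbn1 and Pdgfra fell in chemotherapy against healthy (adjusted p = 0.0263 to 0.044), and none was called in the other comparisons. Of 6 endothelial markers Tie1 fell and Emcn rose in chemotherapy against healthy, and of 5 satellite cell markers Pax7 fell, at 1.74 ± 0.787 CPM in chemotherapy and 4.62 ± 1.36 CPM in healthy samples. All 11 of these calls were lost with the suffix or a surrogate variable from scaled counts as a term. They were also lost without healthy libraries 1, 3 and 4 together and without any one of them or of chemotherapy samples 13, 14 and 15. Under each of these settings 0% of all genes were called, so the loss is not particular to these markers. Within the VM libraries, which hold 1 healthy sample, the 11 log2 fold changes kept their direction. They ran from -1.335 for Pax7 to -0.41 for Acta2, with Emcn at 0.72. Without chemotherapy sample 16 those of Pdgfra, Fbn1, Emcn and Pdgfrb were lost (adjusted p = 0.0505 to 0.0803), and that of Pdgfra also without sample 17, with total counts alone, with no filter and with libraries 11 and 12 kept apart (0.0561 to 0.0738). In tumor against healthy no marker was called. The 4 adipocyte markers tested were all positive there, with a median log2 fold change of 1.35 and 2 with an unadjusted p below 0.05. All 7 macrophage markers and all 5 satellite cell markers were negative, with medians of -0.47 and -0.48 and 3 of each with such a p. Over all genes in this comparison, 51% were positive. Such a p was held with a positive fold change by 8.88% and with a negative one by 1081 of 11856. Red blood cell markers summed to between 124 and 917 CPM in chemotherapy samples, 227 and 588 in tumor samples and 440.4 and 1379 in healthy samples. All 5 were negative in tumor and in chemotherapy against healthy, with medians of -1.06 and -0.88. In each, 4 had an unadjusted p below 0.05 and none was called, beside 1081 and 2072 of 11856 genes lower with such a p. The part of these other cells in the levels of the slow genes was not tested.

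Within a library, the counts of a slow gene over those of its fast paralog do not depend on how libraries are scaled, and 8 such pairs could be formed. Slow counts as a percentage of fast counts were higher in tumor than in healthy samples on average for all 8 pairs, by 0.34 to 1.28 on the log2 scale, and lower in chemotherapy than in tumor samples for all 8, by log2 differences of -0.77 to -0.27. Against healthy samples, chemotherapy samples were higher for 5 of 8 pairs. The directions against healthy samples rest on the MB healthy libraries: within the VM libraries, which hold healthy library 5 alone, tumor samples were higher for 2 of 8 pairs, with log2 differences of -0.51 to 0.092, and chemotherapy samples for 0 of 8. Chemotherapy samples stayed below tumor samples for all 8 pairs within the VM libraries, by -0.79 to -0.22. No test was made on these ratios, which share their slow counts with the results above.

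The troponin T pair shows the pattern in single samples. Tnnt1 counts over Tnnt3 counts ranged from 3.16% to 6.81% in chemotherapy samples (median 4.11), were 10.1%, 7.47%, 6.88%, 4.16% and 5.29% in tumor samples, and were 1.68%, 2.40%, 2.29%, 2.68% and 6.43% in healthy samples. The 4 MB healthy samples lay below every other sample, and healthy library 5 among the tumor samples. For the myosin pair the healthy samples spread over most of the range: Myh7 over Myh4 ranged from 2.94% to 5.62% in chemotherapy samples (median 4.04), was 6.68%, 7.35%, 9.16%, 3.36% and 7.62% in tumor samples and was 4.37%, 2.99%, 4.08%, 8.49% and 7.75% in healthy samples. In tumor samples 7 and 8 the Myh4 count was deposited rounded to 3 digits, which is far finer than these differences.

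**Figure D3:**
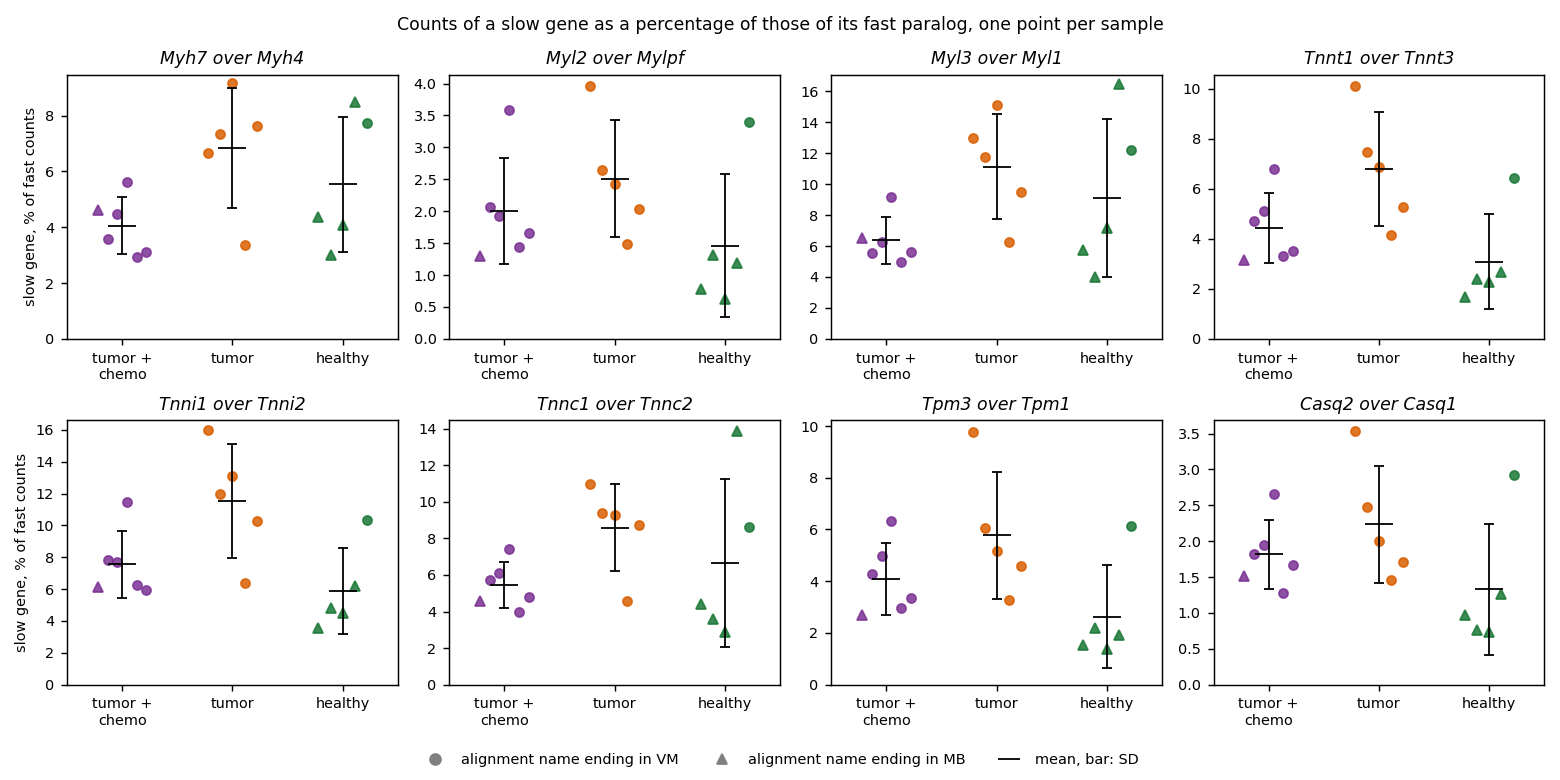
Counts of 8 slow genes as a percentage of the counts of their fast paralogs, 1 point per sample, with the mean and SD of each group and the suffix shown by the point shape. Tumor means exceed chemotherapy means in every panel. For Myl2, Tnnt1, Tpm3 and Casq2 the 4 MB healthy samples are close to the bottom and the VM healthy sample is near the top.

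Both sides of the ratio entered. Of the 8 fast paralogs, 3 had a positive fold change in tumor against healthy and 7 in chemotherapy against tumor. Over all genes, 51% and 50.6% were positive. None of the 8 was called in any comparison, where 13.7% of all genes were called in chemotherapy against healthy and 0% in each other comparison. Mylpf, the fast regulatory light chain, averaged 12224 ± 1578 CPM in chemotherapy, 12048 ± 2911 in tumor and 18351 ± 6063 in healthy samples, with log2 fold changes of -0.59 ± 0.21 for chemotherapy and -0.61 ± 0.22 for tumor against healthy (adjusted p = 0.0601 and 0.24). Tnni2, fast troponin I, averaged 9023 ± 998 CPM in chemotherapy, 8504 ± 1601 in tumor and 11558 ± 2363 in healthy samples. Tnnc2, fast troponin C, ran the other way, at 7226 ± 798 CPM in chemotherapy, 5817 ± 1437 in tumor and 4823 ± 2076 in healthy samples, and the mean log2 ratio of Tnnc1 over Tnnc2 was -0.072 for chemotherapy against healthy. Of 11 fast paralogs listed, 8 were matched by gene name. Myh1, Myh2 and Atp2a1 were not matched, so no ratio used them and they were not analysed here.

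The 10 genes did not move as one block. Correlations of log2 levels across the 16 samples, after each group's mean was taken out, ran from 0.99 for Tnnt1 with Tpm3 to 0.15 for Myl3 with Tpm3. Tnnt1, Tpm3, Tnnc1 and Casq2 were tied to each other at 0.90 or above, and Myl3 was tied to Tnni1 at 0.91 but to Tnnt1 at only 0.23. Myh7b was loosely tied to all others, between 0.25 with Tpm3 and 0.50 with Atp2a2. All samples of a group share its mean and the values share library totals, so these are descriptions of 16 samples without a test.

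**Figure D4:**
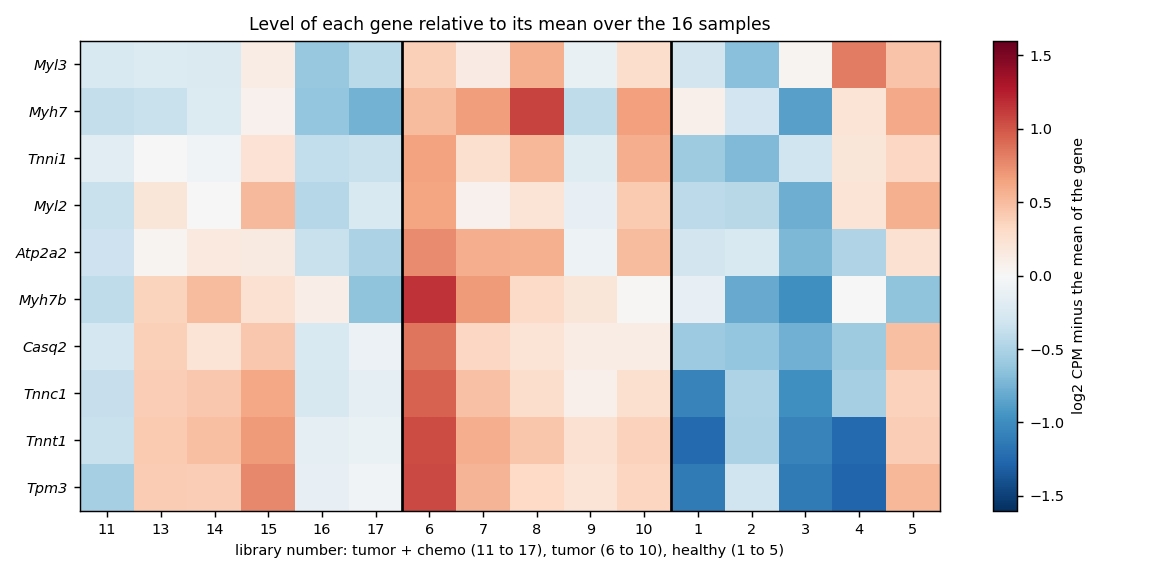
Log2 level of each gene minus its mean over the 16 samples, with chemotherapy samples at the left, tumor samples in the middle and healthy samples at the right. Healthy samples 1, 3 and 4 are lowest for the 3 bottom rows, Tnnc1, Tnnt1 and Tpm3, while Myl3 in healthy sample 4 is the highest of its row. The row order was chosen after the values were seen.

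The split is plainest in healthy libraries 1, 3 and 4. Tnnt1 counts were 73.5% to 121% of Tnni1 counts in chemotherapy samples, 71.6% to 113% in tumor samples, 95.9% and 86.9% in healthy libraries 2 and 5, and 52.2%, 49.3% and 30.8% in healthy libraries 1, 3 and 4. Myl3 over Tnni1 went the other way, at 110% to 123% in chemotherapy samples, 106% to 136% in tumor samples, 133% and 141% in healthy libraries 2 and 5, and 158%, 166% and 200.2% in healthy libraries 1, 3 and 4. Both ratios compare subunits of the slow sarcomere within a library, so they show unequal levels of slow genes among samples of 1 group. These ratios were picked after the levels were seen and have no test.

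**Figure D5:**
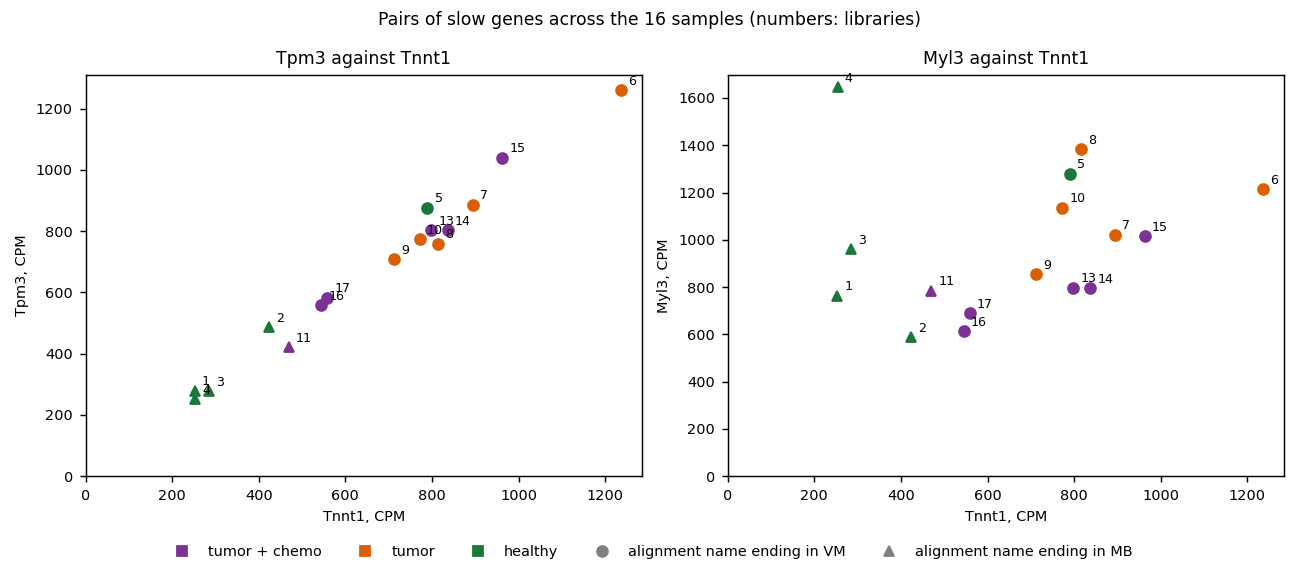
Tpm3 (left) and Myl3 (right) against Tnnt1, in CPM, 1 point per sample labelled by its library number. Tpm3 follows Tnnt1 along 1 line through all groups, whereas healthy library 4 has the highest Myl3 at one of the lowest Tnnt1 levels.

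Other genes of slow fibers, from a list of 16 of which 14 were measured, gave no call in any comparison. Over all genes, 13.7% were called in chemotherapy against healthy and 0% in each other comparison. In chemotherapy against tumor 5 of the 14 were positive, beside 50.6% of all genes. An unadjusted p below 0.05 was held by 3, all lower, beside 3.81% of all genes with such a p and a negative fold change. Myom3, an M-band protein of slow and intermediate fibers, averaged 96.9 ± 23.1 CPM in chemotherapy and 171 ± 49.6 in tumor samples (log2 fold change -0.83 ± 0.23). Actn2, the alpha-actinin of all fibers and heart, averaged 1252 ± 228 against 1864 ± 336 CPM, and Ldhb, the heart-type lactate dehydrogenase, 170 ± 23.7 against 230.1 ± 58.4 CPM. In tumor against healthy 12 of 14 were positive with a median of 0.29, beside 51% and 0.0097 over all genes. They were led by Ldhb at 0.49 ± 0.19, Lmod2, a thin filament length regulator, at 1.24 ± 0.53 and Myom3 at 0.47 ± 0.24. In chemotherapy against healthy 8 of 14 were positive, beside 48.8% of all genes. Actn2 stood at -0.58 ± 0.21, Smpx, a small costamere protein, at 0.52 ± 0.21 and Mybpc1, slow myosin binding protein C, at 0.71 ± 0.31.

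Genes of fast fibers outside the paralog pairs gave 1 call. Myoz1, a Z-disc protein of fast fibers, fell by 0.65 on the log2 scale in chemotherapy against healthy muscle (SE 0.20, adjusted p = 0.0392), a direction called for 6.41% of all genes, at 3009 ± 537 CPM in chemotherapy, 2896 ± 701 in tumor and 4727 ± 1325 in healthy samples. Actn3, the alpha-actinin of fast fibers, averaged 12270 ± 2199 CPM in chemotherapy, 12630 ± 3364 in tumor and 17000 ± 3593 in healthy samples and was not called. Tmod4, a fast-fiber protein that caps thin filaments, averaged 689 ± 40.6 CPM in chemotherapy, 638 ± 63.5 in tumor and 829.4 ± 131 in healthy samples (log2 fold change -0.38 ± 0.13 for tumor against healthy, adjusted p = 0.221). In chemotherapy against tumor the smallest p belonged to Tmod4 at 0.11 ± 0.12, Pvalb, the calcium buffer parvalbumin, at 0.19 ± 0.22 and Ampd1, the muscle AMP deaminase, at -0.072 ± 0.13. The call of Myoz1 did not hold with total counts alone as the scaling (adjusted p = 0.0572), with libraries 11 and 12 kept apart (0.0512), with the suffix or a surrogate variable from scaled counts in the model, within the VM libraries, without healthy libraries 1, 3 and 4 together or, at adjusted p of 0.0547 to 0.112, without any one of healthy libraries 1, 3 and 4 or chemotherapy samples 13 to 17. No gene at all was called in that comparison with either added term, or without healthy libraries 1, 3 and 4 together. The same held without any one of these or of chemotherapy samples 13, 14 and 15. Of the 6 measured genes of the fast-fiber list, 0 were positive in chemotherapy against healthy and 1 in tumor against healthy. Over all genes, 48.8% and 51% were positive. Among developmental and atrial myosin genes none was called. The smallest p in chemotherapy against healthy belonged to Myl4, the atrial and embryonic light chain, at 0.30 ± 0.17, Myh3, the embryonic heavy chain, at -0.48 ± 0.35 and Actc1, cardiac actin, at -0.33 ± 0.27. Myh6 had a log2 fold change of -0.67 ± 0.25 for chemotherapy against tumor, followed by Myl4 at 0.22 ± 0.17 and Myh3 at -0.35 ± 0.35, and of 0.86 ± 0.27 for tumor against healthy, followed by Actc1 at -0.30 ± 0.28 and Myl4 at 0.077 ± 0.18. Myh6, the alpha myosin heavy chain, had counts that were 2.29% ± 0.174 of Myh7 counts in chemotherapy, 1.95% ± 0.232 in tumor and 1.52% ± 0.449 in healthy samples, and because the genes are nearly identical in sequence, reads of one can be counted for the other.

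Among 34 measured regulators of the slow program, 3 were called in chemotherapy against healthy muscle and none in the other comparisons. Ppard, a nuclear receptor known in mice to favor oxidative fibers, fell by 0.78 on the log2 scale (SE 0.23, adjusted p = 0.0364), to 13.6 ± 3.33 CPM in chemotherapy, against 23.6 ± 7.23 CPM in healthy samples. Hdac5, a class II histone deacetylase that holds MEF2 factors in check, fell by 0.52 (SE 0.16, adjusted p = 0.0422), to 59.3 ± 8.75 against 84.9 ± 17.5 CPM. Tbx15, a T-box factor of fast fibers in mice, rose by 0.65 ± 0.21 (adjusted p = 0.0482), to 185 ± 33.8 against 118 ± 40.7 CPM. In this comparison 6.41% of all genes were called lower and 7.3% higher, so 3 of 34 is not above the background. None of the 3 held with the suffix or a surrogate variable from scaled counts in the model, within the VM libraries, without healthy libraries 1, 3 and 4 together or without any one of healthy libraries 1, 3 and 4 or chemotherapy samples 13 to 16, at adjusted p of 0.052 to 0.144. No gene at all was called in that comparison with either added term, or without healthy libraries 1, 3 and 4 together. The same held without any one of these or of chemotherapy samples 13, 14 and 15. The call of Ppard was also lost without chemotherapy sample 17 (adjusted p = 0.0519), and that of Hdac5 with total counts alone (0.0946) and with no filter (0.064). The call of Tbx15 was also lost without any one of tumor samples 6, 7, 9 and 10 (0.0502 to 0.0545), with no filter (0.0609), with the 2 groups alone in the fit (0.0503), without the 20 most abundant genes (0.0509) and with libraries 11 and 12 kept apart (0.0558). In chemotherapy against tumor, the smallest p belonged to Prox1, a homeobox factor required for slow fiber identity in mice, at 6.22 ± 1.35 CPM in chemotherapy and 11.4 ± 2.49 CPM in tumor samples (log2 fold change -0.87 ± 0.24, adjusted p = 0.778). Nfatc1, the calcineurin-dependent factor that senses slow nerve activity, followed at 33.9 ± 7.85 against 45.4 ± 9.69 CPM (-0.41 ± 0.16), and Hdac4 at -0.40 ± 0.17. In tumor against healthy the smallest p belonged to Esrra at -0.38 ± 0.14, Purb at 0.54 ± 0.22 and Srf at -0.38 ± 0.16.

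Among 9344 genes that averaged 5 CPM or more, the 10 whose deviations from the group means followed the mean deviation of the slow genes most closely included Atp1b1, Myoz2, Xpo4, Synj2, Ldhb, Wdr33, Nceh1, Slc4a3 and Fgf1. Pearson's r over the 16 samples was 0.914 for Atp1b1, a sodium pump subunit (Spearman's rho 0.90), 0.907 for Myoz2, the slow-fiber counterpart of Myoz1, and 0.802 for Fgf1. Without the 2 samples farthest from the median, healthy library 5 and chemotherapy sample 15, r was 0.84 for Atp1b1, 0.823 for Myoz2 and 0.741 for Fgf1. The largest fall among the genes named was that of Slc4a3, from 0.805 to 0.593. The 5 that ran most against the slow genes were Gpd1, the cytosolic glycerol-3-phosphate dehydrogenase of glycolytic fibers, at -0.901, and Cyp4f6, Tmem109, Unc119b and Nelfa, between -0.856 and -0.824. Members themselves reached r of 0.951 for Tnnc1 and 0.537 for Myh7b with a mean that contains them. The other genes are the extremes of 9344 values and share the library totals of the same 16 samples, so the correlations are descriptions and no p is given.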

How the data were processed

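Stranded libraries were made from ribosome-depleted total RNA of the gastrocnemius, per the labels' protocols. The authors deposited raw read counts per gene for 17 libraries, with no normalisation. Tools listed, with no role, in the submitters' processing notes are TopHat2 2.0.10, Bowtie2, FastQC 0.11.4, CASAVA 1.9 and Trim Galore 0.4.1. The sources used here do not name the genome build, annotation or counter.

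Of 32883 rows, 388 without a gene name, holding 0.102% to 0.373% of a library's counts, were left out of totals and tests. Libraries 11 and 12 had nearly the same alignment names and a chi-square per degree of freedom of 2.04, against 5.47 for the next closest pair, and were summed. The test was edgeR 4.0.16 under R 4.3.3 (TMM, filterByExpr with a minimum count of 10, robust quasi-likelihood, a mean per group, 16 samples, 13 residual degrees of freedom), two-sided, with Benjamini-Hochberg adjustment over 11856 genes. SE is the size of the log2 fold change over the square root of F. The steps were tested on simulated data. Alternatives used DESeq2 1.42.0, limma 3.58.1 and sva 3.50.0, other scalings and filters, a suffix term, subsets of libraries and leaving out each sample.

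The 10 genes and the other lists were chosen with earlier results of these data known. Genes outside the 10 and their paralogs are named by rule: called members and the 3 smallest p per comparison of the lists of other slow, other fast, regulator and developmental genes, and the 10 highest and 5 lowest r. Cell markers were named after their values were seen. A gene picked by this rule is not reported here. Likeness used log2(CPM + 0.5).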

Additional observations from a re-analysis of the deposited data

Results flagged for a closer look

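There were 30 sets of values, the 10 genes in each of 3 groups. In 3 sets the gap from the highest sample to the next filled more of the group's range than Dixon's 95% limit allows. Chance flags about 1 in 20 independent sets. These sets share samples and correlated genes, with r of 0.94 for Casq2 and Tnnc1, so the 3 flags cannot be weighed against that rate. Casq2 was at 106 CPM in tumor library 6, against 63.4 to 73.9 CPM in the other tumor samples. In healthy library 5, the only healthy library with the VM suffix, Casq2 was at 81.9 CPM, against 34.5 to 39.4 CPM in the other healthy samples, and Tnnc1 at 456 CPM, against 169 to 251 CPM.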

How the results depend on the processing

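No paired analysis was possible because the groups share no replicate numbers. Depth did not keep any of the 10 genes from being tested. In chemotherapy against tumor every fold change of the 10 genes was negative, and none was called, in all 31 alternatives. In the comparisons with healthy muscle, scaling, filters and the handling of libraries 11 and 12 left the count of called genes among the 10 at 0. DESeq2's test called 2 genes in tumor against healthy, 1 in chemotherapy against healthy and 6 in the test of any difference, and limma-voom 0, 2 and 2. Over the leave-one-out fits the counts ran from 0 to 2 in tumor against healthy, 0 to 4 in chemotherapy against healthy and 0 to 5 in the test of any difference. Total counts alone moved the median of all genes to 0.133 in tumor and 0.122 in chemotherapy against healthy and split the calls of the second into 1669 higher and 348 lower, against 865 and 760 with TMM. Calls over all genes in chemotherapy against healthy numbered 884 with no filter, 2577 by DESeq2, 2444 by limma-voom and 0 with the suffix term, within VM libraries or without healthy libraries 1, 3 and 4. Over all genes, DESeq2 made 40 calls in tumor against healthy, 9 in chemotherapy against tumor and 1295 in the test of any difference, where limma-voom made 489. Leaving out single samples gave 0 to 504 calls over all genes in tumor against healthy, most without healthy library 2, 0 to 3 in chemotherapy against tumor and 0 to 2422 in the test of any difference.

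A surrogate variable was estimated first from unscaled counts, which gave 2310 calls over all genes in chemotherapy against healthy and 2 of the 10 genes, Tnnt1 and Atp2a2, in the test of any difference. The input was changed to TMM-scaled counts after that result had been seen, and this gave 0 calls in both and 4 of 10 positive fold changes in chemotherapy against healthy, where the unscaled input gave 8.

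Of the 10 genes, none was called by edgeR on all 16 samples with no added term in the model. Tnnt1, Tpm3, Tnnc1 and Casq2 were called in chemotherapy against healthy under other settings, and their signs also changed there. With the suffix term, tumor against healthy gave -0.12 for Myl2 and -0.038 for Myl3, and chemotherapy against healthy -0.30 for Myl2, -0.16 for Tnni1 and -0.12 for Atp2a2. With the scaled surrogate variable, chemotherapy against healthy gave -0.12 for Myl2, -0.12 for Atp2a2, -0.058 for Tpm3 and -0.026 for Casq2. Within VM libraries, tumor against healthy gave -0.029 for Myh7, -0.30 for Myl2, -0.19 for Myl3 and -0.13 for Casq2, and chemotherapy against healthy -0.53 for Myl2, -0.10 for Tnnt1, -0.44 for Tnni1, -0.12 for Tnnc1, -0.32 for Atp2a2, -0.22 for Tpm3 and -0.33 for Casq2. Without healthy libraries 1, 3 and 4, chemotherapy against healthy gave -0.17 for Myl2, -0.022 for Tnni1 and -0.14 for Atp2a2. Leaving out single samples moved Myl3 between -0.061 and 0.31 in tumor against healthy, and Myl2 between -0.076 and 0.28 and Tnni1 between -0.078 and 0.18 in chemotherapy against healthy. The call of Pdgfra, a fibroblast marker, in chemotherapy against healthy turned to 0.037 with the scaled surrogate variable. Slow to fast ratios within VM libraries were added after the values were seen. In tumor against healthy these ratios gave -0.26 for Myh7, -0.51 for Myl2, -0.20 for Myl3 and 0.012 for Tnnt1. They gave 0.092 for Tnni1, -0.062 for Tnnc1, -0.18 for Tpm3 and -0.46 for Casq2. In chemotherapy against healthy the ratios gave -1.02 for Myh7, -0.74 for Myl2, -0.98 for Myl3 and -0.50 for Tnnt1. They gave -0.44 for Tnni1, -0.65 for Tnnc1, -0.54 for Tpm3 and -0.68 for Casq2. The ratio of Tnnc1 to the summed fast paralogs gave 0.68 for chemotherapy against healthy, where Tnnc1 over Tnnc2 gave -0.072. The causes of these changes were not tested.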
